A study of Sus scrofa with 48 samples.

Results

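Sarcoplasmic reticulum calcium handling was described through 10 genes, namely ATP2A1, ATP2A2, SLN, PLN, PVALB, RYR1, CASQ1, CASQ2, TRDN and JPH1. Probes were taken when the gene name in the array files, or the symbol in brackets in their description, was one of these. This gave 61 of the 60305 distinct probes on the array, and all 61 were among the 42125 probes tested, which had to be well above background on at least 12 arrays. The expression was measured in the longissimus, a back muscle made mostly of fast fibres, of 48 Large White barrows from lines selected for low or high residual feed intake (RFI), the part of feed intake not accounted for by growth and maintenance. Pigs of both lines ate freely either a high fat, high fiber (HF) diet or a low fat, low fiber (LF) diet, with 12 pigs in each of the 4 groups and 1 array per pig, and the labels give no age. Litters are not identified in the labels, so that pigs of a line may be relatives, and a line difference is between 2 lines rather than among many.

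When a muscle fibre is excited, the voltage sensor of its surface membrane opens the ryanodine receptor RYR1, and calcium leaves the sarcoplasmic reticulum to start contraction. Calsequestrins (CASQ1 mainly in fast fibres, CASQ2 mainly in slow fibres and heart) hold calcium in the store near the release channel, with triadin (TRDN) as an anchor, and junctophilin 1 (JPH1) keeps the membranes of the triad together. Relaxation follows when the pumps SERCA1 (ATP2A1, fast fibres) and SERCA2 (ATP2A2, slow fibres and heart) return calcium to the store. The small proteins sarcolipin (SLN) and phospholamban (PLN) inhibit these pumps, and parvalbumin (PVALB) buffers calcium in the cytosol of fast fibres.

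The probes were 60-base oligonucleotides, and 30 bases of those on which the comparisons below turn are given, from 5′ to 3′, as the array files hold them. The first pair belongs to ATP2A1 and is shown because one probe is written on the opposite strand to the other. Capitals mark the 29 bases that each shares with the reverse complement of the other.
ATP2A1 A_72_P127906: GAACCGTGTCACAGATCCAGAAGATGAAAg
ATP2A1 O1789: TTTCATCTTCTGGATCTGTGACACGGTTCt
The next set holds the probes that stand for ATP2A2, PLN, CASQ2 and RYR1 below. It also holds other probes of ATP2A1, ATP2A2, PLN and CASQ2 whose values are given below, and no base is set in capitals.
ATP2A1 A_72_P417112: atgcagagaatgccattgaggctctgaagg
ATP2A1 A_72_P141731: gaggccagagttttctgtcatttattttca
ATP2A2 A_72_P602353, from the class 1 transcript: acttcagttattttttgagtgtgcaaacag
ATP2A2 A_72_P579697, from the class 3 non-muscle transcript: gtgttcggttgcgtgcatgtgcgtttttag
ATP2A2 A_72_P303154: attgcctatttcagtggcacttcacaatct
PLN A_72_P035316: gttcacgtcatatataaagcattagcttca
PLN A_72_P285084: tgatgacaaatctactgtcctgacctaatt
CASQ2 O12668: aacaataattagagttcctaatgatgcccc
CASQ2 A_72_P285234: tctttgaaaacaatccttttgtggaagagt
CASQ2 A_72_P306059: agataatttgaacgggatccacattgtggc
RYR1 A_72_P088506: acagaacacacgggtcaggagtcttatgtc

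Probes of one gene are not replicates. With a shared run of at least 20 bases on either strand counted as the same stretch, the 61 probes covered 40 separate stretches, with 13 for the 21 probes of ATP2A2, 5 for the 12 of SLN and 4 for the 7 of PLN. The letters AATAAA, the usual polyadenylation signal, lay in 9 of the 61 probes (14.8%, against 11.7% of all tested probes), of which 4 were from SLN and 2 from CASQ1, and their reverse complement TTTATT in 5 (8.20%, against 4.42%). For each gene the probe with the highest mean signal over the 48 arrays stands for the gene below and is called its main probe. Values are log2 signals minus the mean of the array's tested probes, and a difference of 1 is a 2-fold change. Levels are compared between pigs and not between genes, because the signal of a probe also depends on its sequence.

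No spot was saturated, and the share of probes well above background ran from 59.2 to 74.2% over the arrays. Each of the 6 slides held 8 arrays, 2 from every group. The array of high RFI pig 10 on the HF diet was the brightest and had the lowest correlation with the median array, at 0.983. The skeletal muscle markers ACTA1, CKM, MB, TTN and DES were well above background on all arrays. Of these TTN, which encodes titin, was lower in high RFI pigs (-0.26 ± 0.04, limma adjusted p = 1.4e-05) while the others did not pass. Between lines 16.4% of all probes tested passed. In bulk muscle, fewer fibres of a type and less RNA per fibre cannot be told apart.

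The line difference, high RFI minus low RFI over both diets, had the most calls of the 7 contrasts tested. Of the 42125 probes tested, 16.4% differed between lines at an adjusted p under 0.05 in limma, with 6.57% higher and 9.85% lower in high RFI pigs. Of the 61 member probes, 23 passed (37.7%), of which 5 were higher and 18 lower in high RFI pigs. The 5 higher probes were all 3 of CASQ2, 1 of the 21 of ATP2A2 and 1 of the 7 of PLN, genes of slow fibres and heart. The main probes of ATP2A2 and PLN did not pass. The 18 lower probes were 8 of SLN, 4 of RYR1, 3 of ATP2A1, 2 of CASQ1 and the single probe of TRDN. JPH1 and PVALB had 1 probe each, and neither passed. The share of member probes called depended on the scaling. After quantile normalization 5 main probes lost their call, and 6 of the 17 other called probes kept it. The share of members called was then smaller than that of all probes, as given in the last section.

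Bright probes as a whole were lower in high RFI pigs. Over the 724 tested probes with a mean log2 signal above 8, the median line difference was -0.11 and 97.8% lay below 0, against a median of -0.03 for 8566 probes between 0 and 2. Quantile normalization, which gives every array the same distribution of signals, brought the median above 8 to -0.0037. The main probes of SLN, CASQ1 and TRDN lie above 8 and those of ATP2A1 and RYR1 between 6 and 8, where 1223 probes had a median of -0.08. The signal ranges were chosen after the values had been seen, and the part of this shift in the results was not tested.

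**Figure D1:**
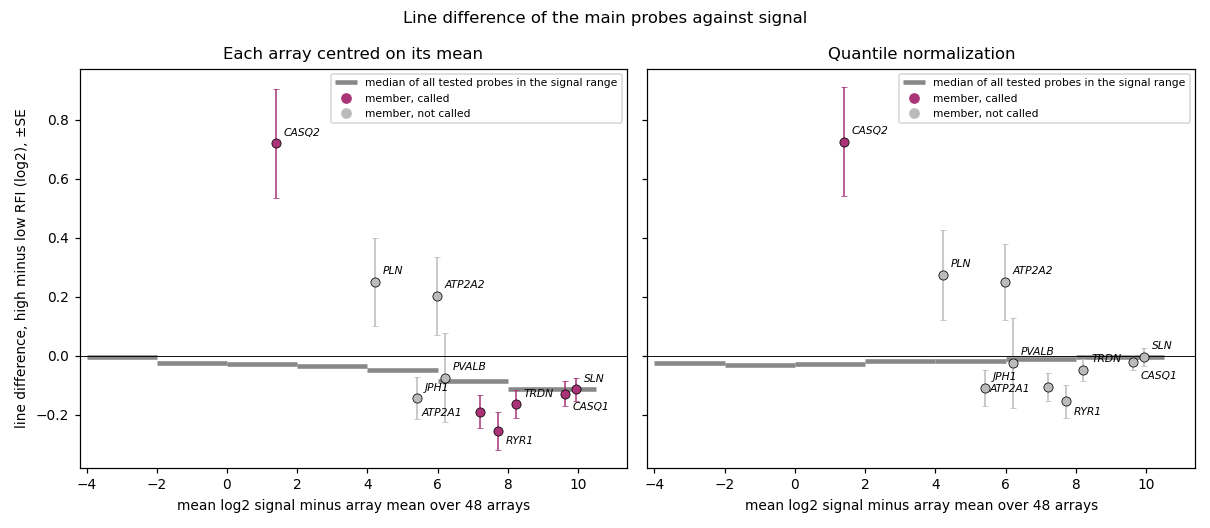
Line difference (high minus low RFI, log2, ± SE) of the main probe of each of the 10 genes against its mean log2 signal, with arrays centred on their mean (left) or after quantile normalization (right). Grey bars give the median of all tested probes in each signal range, and coloured points passed the threshold. CASQ2 lies at 0.72 on the left and remains called on the right, whereas SLN and CASQ1 lie on the grey bars in both.

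CASQ2, the cardiac and slow-fibre calsequestrin, had the largest line difference of the 10 main probes. Its main probe ranged from 0.22 to 1.63 with a median of 1.10 in low RFI pigs fed HF, and from 0.02 to 2.49 with a median of 1.605 in high RFI pigs on this diet. On the LF diet it ranged from -0.05 to 1.96 with a median of 0.95 in low RFI pigs, and from 0.73 to 3.17 with a median of 2.15 in high RFI pigs. The lines overlapped on both diets, but 20 of 24 high RFI pigs lay above the mean of the low RFI line. CASQ2 was 1.65-fold higher in the high RFI line (log2 difference 0.72 ± 0.19 SE, n = 24 per line, limma adjusted p = 0.0060), and higher on all 6 slides, with differences of 0.51 to 0.98. The other probes, which share no stretch with it, gave 0.74 and 0.77. All 3 probes passed in each alternative in which they were fitted, and quantile normalization was among these. The size at A_72_P306059, printed above as 0.77, fell to 0.33 with normexp background correction and 0.48 in the deposited values, whereas the main probe gave 0.68 in both.

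On the LF diet the line difference of CASQ2 was 0.97 ± 0.26 (SE, n = 12 per group, limma adjusted p = 0.033), which is a 1.96-fold higher level. On the HF diet it was 0.47 ± 0.26 (limma adjusted p = 0.27). The test of the difference between these values, the line by diet interaction, gave -0.51 ± 0.37 (limma adjusted p = 0.999), so that a dependence on diet was not shown. The order of the group means was high RFI on LF at 2.08, high RFI on HF at 1.42, low RFI on LF at 1.10 and low RFI on HF at 0.95, and the last 2 lay well within their SDs of 0.56 and 0.50. The 3 CASQ2 probes were the only member probes called on the LF diet, where 2.47% of all probes passed, and without the filter on dim probes the main probe no longer passed (0.99, limma adjusted p = 0.065).

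Some markers of other cells differed between lines as well, where 16.4% of all probes tested did. Of 4 macrophage markers tested, all had a higher level in high RFI pigs and 2 passed, namely CSF1R (0.94 ± 0.21, limma adjusted p = 0.0020) and CD14 (0.30 ± 0.08, limma adjusted p = 0.0092). Their summed level ranged from 0.21 to 2.56 with a median of 1.49 in low RFI pigs, and from 1.08 to 3.73 with a median of 2.06 in high RFI pigs. The 4 heart muscle markers tested gave line differences of both signs, 2 positive and 2 negative, with a median of 0.07. Of these, 1 passed, the cardiac troponin TNNT2 (1.05 ± 0.31, limma adjusted p = 0.016), while TNNI3 gave 0.17, MYL7 -0.02 and NPPA -0.10, and their sum ranged from 1.61 to 3.36 in low and from 2.0 to 4.20 in high RFI pigs. Among the 4 Schwann cell markers tested 3 passed, with PMP22 higher (0.21) and S100B (-0.34) and SOX10 (-0.14) lower. Of 6 adipocyte, 5 fibroblast and 5 endothelial cell markers tested, 1 each was called higher, FABP4 (0.32), COL1A1 (0.37) and TEK (0.24). This is near the 16.4% of all probes. Of the smooth muscle, T cell and red blood cell markers, 0 were called by limma. The part of these cells in the CASQ2 difference was not tested.

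RYR1, the calcium release channel, was lower in high RFI pigs. Its main probe ranged from 7.55 to 8.25 with a median of 7.80 in low RFI pigs on HF, and from 7.16 to 7.96 with a median of 7.63 in high RFI pigs on HF. On LF the ranges were 7.68 to 8.15 with a median of 7.76 in low RFI pigs, and 7.14 to 7.88 with a median of 7.59 in high RFI pigs. The groups overlapped, and 20 of 24 high RFI pigs lay below the mean of the low RFI line. The level was 1.19-fold lower (log2 difference -0.25 ± 0.06 SE, n = 24 per line, limma adjusted p = 0.0051). It was lower on 5 of 6 slides, and the differences by slide ran from -0.53 to 0.02. The 5 RYR1 probes covered 5 separate stretches, gave line differences of -0.25 to -0.15, and 4 passed. After quantile normalization the main probe gave -0.15 (limma adjusted p = 0.054), and of the 4 called probes only O7166, at -0.24 in the main analysis, passed in all 10 alternatives.

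TRDN, which anchors calsequestrin to the release channel, had medians of 8.29 in low RFI pigs (8.11 to 8.55) and 8.16 in high RFI pigs (7.68 to 8.44). Of the high RFI pigs, 21 of 24 lay below the mean of the other line. The difference was -0.16 ± 0.05 (SE, n = 24 per line, limma adjusted p = 0.014). It was -0.05 after quantile normalization (limma adjusted p = 0.39) and -0.16 without the filter on dim probes (limma adjusted p = 0.079).

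CASQ1, the calsequestrin of fast fibres, ranged from 9.46 to 9.96 with a median of 9.71 in low RFI pigs, and from 9.12 to 9.80 with a median of 9.59 in high RFI pigs. It was 1.09-fold lower in the high RFI line (-0.13 ± 0.04 SE, n = 24 per line, limma adjusted p = 0.036), in the opposite direction to CASQ2. This call rested on the processing. It was lost after quantile normalization (-0.02, limma adjusted p = 0.57), without the filter on dim probes (-0.12, limma adjusted p = 0.15) and without the array of high RFI pig 10 on HF (-0.11, limma adjusted p = 0.053). Of the other 4 probes, A_72_P178481, which shares its stretch, also passed, A_72_P032481 and A_72_P414408 gave -0.08 and -0.09 without passing, and A_72_P355048, which was well above background on only 13 arrays, gave 0.10 ± 0.15.

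JPH1 ranged from 5.06 to 5.99 in low RFI pigs and from 4.62 to 5.87 in high RFI pigs. Its line difference was -0.14, with a 95% interval of -0.29 to 0.0009 (limma adjusted p = 0.16), and it was negative on all 6 slides.

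**Figure D2:**
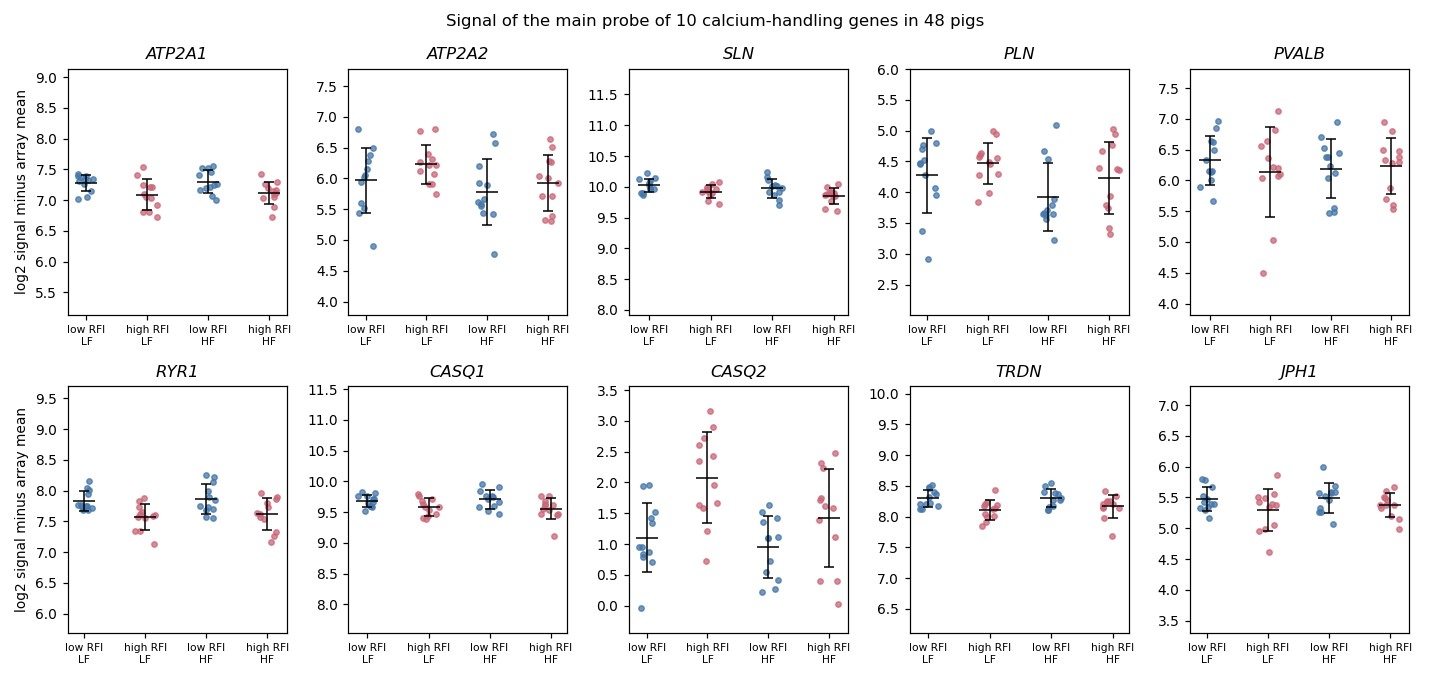
Log2 signal minus array mean of the main probe of each gene in each of 48 pigs, by line (blue low RFI, red high RFI) and diet. Every panel spans 4 log2 units, points are pigs, and bars give the mean ± SD of 12 pigs. The groups of CASQ2 are wide and the high RFI pigs on LF lie highest, with a mean of 2.08, whereas the groups of SLN and CASQ1 are narrow.

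The main probes of the fast-fibre and slow-fibre pumps had line differences of opposite sign, of which only that of ATP2A1 was called. ATP2A1 ranged from 7.01 to 7.55 with a median of 7.26 in low RFI pigs on HF, and from 6.73 to 7.42 with a median of 7.14 in high RFI pigs on HF. On LF it ranged from 7.02 to 7.42 with a median of 7.33 in low RFI pigs, and from 6.72 to 7.54 with a median of 7.07 in high RFI pigs. Of the high RFI pigs, 20 of 24 lay below the mean of the low RFI line. The difference was -0.19 ± 0.06 (SE, n = 24 per line, limma adjusted p = 0.017), a 1.14-fold lower level, and it was negative on all 6 slides, from -0.34 to -0.11. It was -0.11 after quantile normalization (limma adjusted p = 0.11) and -0.18 without the filter on dim probes (limma adjusted p = 0.057).

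The probes of ATP2A1 did not behave as one. A_72_P417112 gave a larger difference of -0.31 ± 0.07 (limma adjusted p = 0.0020), with medians of 5.80 in low RFI and 5.58 in high RFI pigs, all 24 low RFI pigs lying above the high RFI mean. It passed in all 10 alternatives, with values of -0.32 to -0.27. O1789, the probe on the opposite strand, gave -0.12 without passing (limma adjusted p = 0.13). A_72_P141731 gave 0.09 ± 0.05 (limma adjusted p = 0.22), and its correlation with the main probe over the pigs was -0.18, whereas the other probes gave 0.55, 0.58 and 0.93. The value of 0.93 belongs to CUST_452_PI427286967, which was also called but shares 59 bases with the main probe.

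ATP2A2, the slow-fibre pump, had a median of 5.64 (4.77 to 6.71) in low RFI and 5.97 (5.30 to 6.64) in high RFI pigs on HF. On LF the medians were 6.04 (4.91 to 6.80) and 6.22 (5.75 to 6.80). The pigs of each group spread over more than 1 log2 unit and the groups overlapped. The line difference was 0.20, with a 95% interval of -0.06 to 0.47 (limma adjusted p = 0.29). It was positive on all 6 slides and at 20 of the 21 ATP2A2 probes, whose differences had a median of 0.22, but these probes moved together, with a median correlation of 0.98 with the main probe.

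ATP2A2 probes annotated to the class 1 transcript and those annotated to the class 3 non-muscle transcript gave close values. The class is that of the record named for a probe, and whether a probe tells these transcripts apart was not tested. A class 1 probe, A_72_P664060, ends in the bases with which the class 3 probe A_72_P637459 begins. The 3 class 3 probes, A_72_P579697, A_72_P583641 and A_72_P637459, gave 0.22, 0.22 and 0.23. Their correlations with the main probe, annotated to class 1, were 0.98 to 0.99. A_72_P303154 was the only ATP2A2 probe called, at 0.23 ± 0.07 (limma adjusted p = 0.020), and it passed in all 10 alternatives. Its difference was close to the median of the ATP2A2 probes, and its SD within the groups, 0.19 to 0.27, was smaller than that of the main probe, 0.32 to 0.53. A_72_P444260 had the opposite sign, at -0.10 (limma adjusted p = 0.57). A_72_P303154 and A_72_P444260 had the lowest correlations with the main probe among the ATP2A2 probes, at 0.69 and 0.67.

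**Figure D3:**
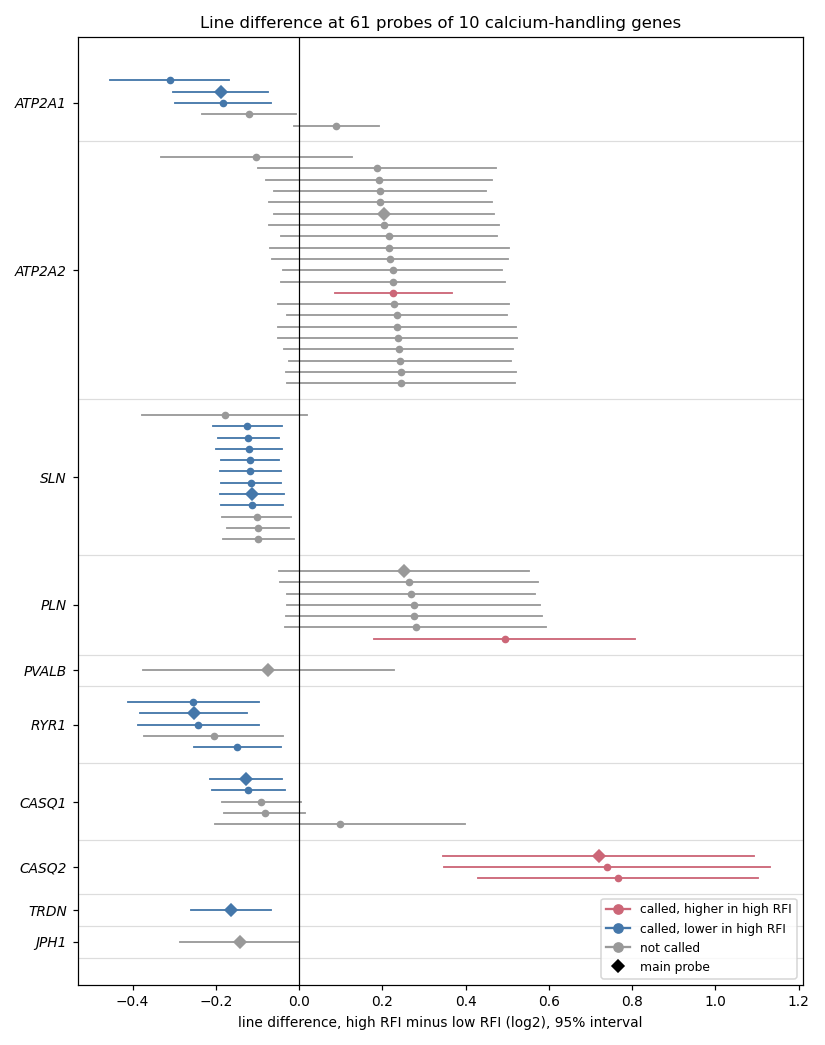
Line difference (high minus low RFI, log2) with its 95% interval at each of the 61 probes, grouped by gene. Diamonds mark main probes, red and blue mark probes called higher or lower in high RFI pigs, and grey marks probes that were not called. The 3 CASQ2 probes lie between 0.72 and 0.77, and the probes of RYR1 between -0.25 and -0.15.

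PLN, which inhibits the slow-fibre pump, had a median of 4.01 (2.92 to 5.10) in low RFI pigs and 4.43 (3.32 to 5.03) in high RFI pigs. The line difference of its main probe was 0.25, with a 95% interval of -0.05 to 0.55 (limma adjusted p = 0.25), and it was positive on 4 of 6 slides. A_72_P285084, from a cDNA read, was called at 0.49 ± 0.16 (limma adjusted p = 0.024). In low RFI pigs on LF it ranged from -1.12 to 0.37 with a median of -0.35, and in high RFI pigs on LF from -0.06 to 1.33 with a median of 0.44. In low RFI pigs on HF it ranged from -0.52 to 0.54 with a median of -0.14, and in high RFI pigs on HF from -1.12 to 1.83 with a median of -0.08. The line difference was 0.76 ± 0.22 on LF (limma adjusted p = 0.052) and 0.23 ± 0.22 on HF (limma adjusted p = 0.54), and the interaction did not pass (-0.52 ± 0.31, limma adjusted p = 0.999). Its correlation with the main probe was 0.56, the lowest among the PLN probes.

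SLN, the other pump inhibitor, ranged from 9.70 to 10.24 with a median of 9.997 in low RFI pigs, and from 9.60 to 10.07 with a median of 9.90 in high RFI pigs. Its line difference was -0.11 ± 0.04 (SE, n = 24 per line, limma adjusted p = 0.037), a 1.08-fold lower level, and 8 of its 12 probes passed. All 12 differences were negative, from -0.18 to -0.10. This size equals the median of all probes above 8, and after quantile normalization the main probe gave -0.0028 (limma adjusted p = 0.97). The call was also lost under 75th percentile scaling (-0.11, limma adjusted p = 0.053), normexp background correction (-0.07, limma adjusted p = 0.14), no filter on dim probes (-0.11, limma adjusted p = 0.23), in the deposited table (-0.10, limma adjusted p = 0.056) and without the array of high RFI pig 10 on HF (-0.10, limma adjusted p = 0.056).

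PVALB ranged from 5.47 to 6.97 with a median of 6.28 in low RFI pigs, and from 4.50 to 7.13 with a median of 6.29 in high RFI pigs. The 2 lowest pigs, at 4.50 and 5.04, were both high RFI pigs on LF. The line difference was -0.07, with a 95% interval of -0.37 to 0.23 (limma adjusted p = 0.78).

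Within one diet few calls were made. On the HF diet, 0 of 61 member probes passed in limma, where 6.39% of all probes did. The lowest adjusted p was 0.056, at ATP2A1 A_72_P417112. At an unadjusted p under 0.05 in limma, 20 of 61 member probes passed, beside 10193 of all 42125 probes. The variants with slide as a fixed or random block called 4 and 1 member probes there (9.94% and 9.54% of all probes), and 3 passed in the deposited values (7.33% of all). On the LF diet, 3 of 61 passed, which were those of CASQ2, where 2.47% of all probes did. Unadjusted, 14 of 61 passed there, beside 6940 of all 42125 probes.

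No calcium gene passed the test for diet. For HF minus LF over both lines, 0 of 61 member probes passed in limma, where 0.42% of all probes did. At an unadjusted p under 0.05 in limma, 11 of 61 passed, beside 5513 of all 42125 probes. In low RFI pigs 0 of 61 passed (3 unadjusted), against 0.199% of all probes (4902 of 42125 unadjusted). In high RFI pigs 0 of 61 passed (4 unadjusted), against 0% of all probes (2303 of 42125 unadjusted). The interaction also gave 0 of 61 (1 unadjusted) and 0% of all probes (1875 of 42125 unadjusted). The genes of slow fibres had the largest of these differences at their main probes, all negative and none called. They were -0.41 with a 95% interval of -0.78 to -0.03 for CASQ2, -0.30 (-0.60 to 0.0052) for PLN and -0.25 (-0.51 to 0.02) for ATP2A2, each being negative on 5 of 6 slides. At the main probes of RYR1, TRDN, CASQ1, ATP2A1 and JPH1 the diet difference lay between -0.0006 and 0.05. Among probes that were not main probes, SLN A_72_P502769 gave -0.31, and CASQ1 A_72_P355048, which was near background, gave 0.33. The lowest limma adjusted p for diet among the member probes was 0.13, at a probe of SLN and not of a slow-fibre gene.

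Across pigs within groups, several members varied together. Of 45 pairs of main probes, 20 had a Pearson correlation past an adjusted p of 0.05 (two-sided permutation test, 100000 permutations of pigs within groups), 14 positive and 6 negative, and 17 also passed by Spearman's rho. ATP2A2 and PLN, pump and inhibitor of slow fibres, were the closest pair (r = 0.76, rho = 0.72, permutation adjusted p = 0.00023 for both, n = 48), with a raw permutation p of 1e-05, the smallest that this number can give. Its r was 0.71 without the 2 pigs farthest from the median of ATP2A2 and 0.77 after quantile normalization. In every pair the 2 pigs left out were chosen on its alphabetically first gene alone, so they can differ between pairs. RYR1 and TRDN, which sit together at the release site, gave r = 0.60 (rho = 0.64, permutation adjusted p = 0.00036 and 0.00030), 0.72 without 2 pigs and 0.35 after quantile normalization. The strongest negative pair was ATP2A1 with CASQ2 (r = -0.51, rho = -0.54, permutation adjusted p = 0.0033 and 0.0020), at -0.48 without 2 pigs and -0.59 after quantile normalization. CASQ2 was not correlated past the threshold with ATP2A2 (r = 0.15, rho = 0.11, permutation adjusted p = 0.40 and 0.60), nor with PLN (r = -0.01, rho = -0.05, permutation adjusted p = 0.96 and 0.82).

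Many of the positive pairs depended on the scaling. ATP2A1 with CASQ1 gave r = 0.65 (rho = 0.66, permutation adjusted p = 0.00023 for both), 0.64 without 2 pigs but 0.28 after quantile normalization, and CASQ1 with SLN gave r = 0.60 (rho = 0.56, permutation adjusted p = 0.00030 and 0.00056), 0.49 without 2 pigs but -0.05 after quantile normalization. Of the 20 pairs that passed, all 20 kept their sign with slide means removed and without the 2 pigs chosen for each pair, and 15 after quantile normalization. The 5 pairs that changed sign, to values of -0.11 to -0.03, were CASQ1 with SLN and with RYR1, ATP2A1 with SLN and with TRDN, and SLN with TRDN, and CASQ1 with TRDN fell from 0.58 to 0.06.

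**Figure D4:**
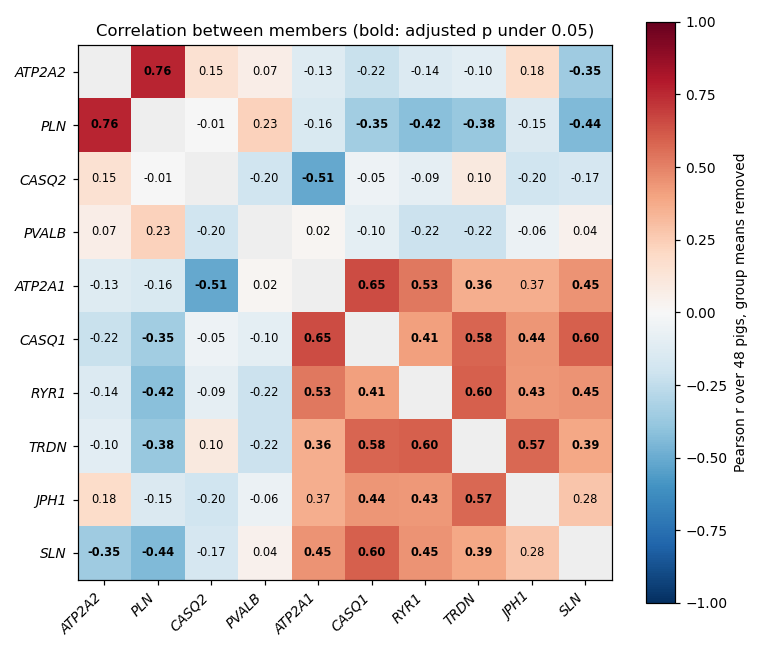
Pearson correlation of each pair of main probes over 48 pigs after the mean of each group was removed, on a colour scale from -1 to 1, with pairs past an adjusted p of 0.05 in bold. ATP2A2 with PLN reaches 0.76, and ATP2A1, CASQ1, RYR1, TRDN, JPH1 and SLN form a block of positive values, in which 5 called pairs changed sign after quantile normalization.

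Among 8783 other genes with a main probe and no missing value, the closest to each member was found by Pearson correlation over the same 48 pigs. For ATP2A2 it was TPM3, a slow-fibre tropomyosin (r = 0.90, rho = 0.89), and for PLN it was MYOZ2, a Z-disc protein of slow fibres and heart (r = 0.76, rho = 0.70). RYR1 was closest to MACROD1 (r = 0.89, rho = 0.90), CASQ1 to RPLP1, a ribosomal protein (r = 0.91, rho = 0.90), JPH1 to CAP2 (r = 0.81, rho = 0.80) and ATP2A1 to USMG5, a subunit associated with the mitochondrial ATP synthase (r = 0.81, rho = 0.78). TRDN was closest to PRPF3 (r = 0.77, rho = 0.71), CASQ2 to LGALS3, a galectin abundant in macrophages (r = 0.76, rho = 0.76), SLN to MUT (r = 0.69, rho = 0.64) and PVALB to ZSCAN2 (r = 0.59, rho = 0.35). After quantile normalization the value was 0.91 for ATP2A2 with TPM3 and 0.76 for CASQ2 with LGALS3, but 0.61 for CASQ1 with RPLP1 and 0.21 for SLN with MUT. All these values come from the same arrays and are a description.

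Other genes of the calcium machinery were taken from lists. Of 28 further genes of the triad and store, 20 were tested, with a median line difference of -0.07 (-0.03 over all probes tested), and 2 were higher and 2 lower in high RFI pigs, a share near the 16.4% of all probes called. S100A1, a calcium-binding protein that acts on the release channel and on SERCA, was higher by 0.71 ± 0.22 (limma adjusted p = 0.018), a size close to that of CASQ2. SRL, which encodes the store protein sarcalumenin, was higher by 0.28 ± 0.09 (limma adjusted p = 0.022). The release channel RYR3 (-0.26 ± 0.07, limma adjusted p = 0.0064) and CACNA2D1, a subunit of the voltage sensor (-0.17 ± 0.05, limma adjusted p = 0.015), were lower. S100A1, SRL and RYR3 passed in all 10 alternatives.

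Of 20 genes of calcium entry, extrusion and mitochondrial uptake, 8 were tested and 0 were called by limma, with differences of -0.16 to 0.14. Of 21 genes of calcium signalling, 20 were tested, with a median of -0.08, and 4 were lower and 0 higher, again near the 16.4% of all probes. These 4 were the calmodulin gene CALM3 (-0.38 ± 0.04, limma adjusted p = 1.4e-08), the calcineurin subunit PPP3CC (-0.26 ± 0.06, limma adjusted p = 0.0026), the calcineurin-binding Z-disc protein MYOZ3 (-0.19 ± 0.06, limma adjusted p = 0.022) and NFATC4, a transcription factor activated by calcineurin (-0.17 ± 0.05, limma adjusted p = 0.013). CALM3 and PPP3CC passed in all 10 alternatives.

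Contractile genes of the fibre types were set beside the calcium genes. Of 7 slow fibre genes tested, 0 were called by limma, with line differences of -0.09 to 0.02, and MYH7, the slow myosin, gave -0.03 ± 0.06 (limma adjusted p = 0.73). Of 9 fast fibre genes tested, all had negative differences of -0.15 to -0.08, and 2 passed, MYH2 (-0.12 ± 0.04, limma adjusted p = 0.026) and TNNI2 (-0.15 ± 0.04, limma adjusted p = 0.016), against 16.4% of all probes. All but MYBPC2 lay above 8 in signal, where 97.8% of all probes had a negative difference. After quantile normalization these gave -0.01 and -0.04 and neither passed. The diet called 0 genes of these 5 lists in limma.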

How the data were processed

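Total RNA of 48 longissimus samples was labelled with Cy3 and hybridised to a 60 K 1-colour Agilent porcine array. The authors deposited scanner intensities per spot, made with Feature Extraction 10.7.3.1, and a table of log2 values, which equals the log2 median signal minus each array's median over 34472 probes and served as an alternative. Here outlier and control spots were dropped, spots of a probe were averaged, and from the log2 processed signal of an array its mean over the 42125 tested probes was subtracted. No value of a member probe was missing.

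limma 3.58.1 (R 4.3.3) was used to compare group means, with p-values adjusted over all tested probes by Benjamini-Hochberg and a threshold of 0.05. The study's methods also centred each array on its mean, over the annotated probes of a larger merged set. For expression levels they used variance analysis of the line on PCR values of selected genes only, and it was run here on array values as an alternative. Correlations used numpy 2.4.6 and scipy 1.17.1. The fit was tested on simulated data. The number of arrays limits the precision.

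Gene symbols came from the array files, for 45.4% of probes, and the closest correlated genes were sought only among symbols in a RefSeq table of the pig. No genome positions are given, as the probes carry none in the files. For each gene, its probe with the highest mean signal was the main one, and other probes were named where their sign or call differed. List genes were named when called, and a few list and marker genes that were not called were named as well. The members and lists were chosen with earlier results of these data known. The correlated genes named are the closest ones by Pearson's r. Alternatives were 75th percentile scaling, quantile normalization, normexp with an offset of 50, no filter on dim probes, probes well above background on all arrays, outlier spots kept, slide as a fixed or random block, the deposited table, the variance analysis and the mean of a gene's probes. Leaving out the array of high RFI pig 10 on HF was added after seeing the data. One marker gene is not reported here.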

Additional observations from a re-analysis of the deposited data

How the results depend on the processing

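All 10 line differences at the main probes kept their direction in every alternative run. Of 130 such values, 114 kept their side of the threshold, 15 lost it and 1 gained it, which was JPH1 at an unadjusted p of 0.049 in the variance analysis of the line alone. The lost calls were those of ATP2A1, RYR1, TRDN, CASQ1 and SLN, and the gene mean of CASQ1 was -0.06 (limma adjusted p = 0.39). Quantile normalization called 7 of the 61 member probes between lines, a smaller share than the 14.9% of all probes. No filter on dim probes called 8 of the 61, a larger share than the 6.42% of all. The main analysis called 23 of the 61 (37.7%, against 16.4% of all). Without the filter 60305 probes entered the adjustment. On the HF diet, slide as a fixed block called 4, slide as a random block 1 and the deposited values 3, against 0 (9.94%, 9.54% and 7.33% of all probes, against 6.39%), and on the LF diet no filter called 1, against 3 (0.703% of all probes, against 2.47%). Of 169 values of other called member probes, 29 lost the call and 1 changed sign, SLN CUST_324_PI427286967 under quantile normalization (0.00056). Without the array of high RFI pig 10 on HF, the main probes of CASQ1 and SLN lost their call. Probe signals near background limit A_72_P355048. No paired analysis was possible because the labels give no replicate numbers that pair pigs across groups.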
